A study of Mus musculus with 6 samples.

Results

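Mouse CD4 T cells from hosts given peptide and rapamycin were compared directly with cells from hosts given peptide and metformin. The cells were collected weeks after the last inhibitor course and after a later peptide challenge. The comparison takes 2 of the 6 libraries of the study, those labelled MEP1+Rapamycin and MEP1+Metformin, and the rule that picks them uses the treatment labels. In the rapamycin library, Ifng, Tbx21 and Cxcr3 of the Th1 programme, the chemokine genes Ccl3 and Ccl4, Il21 and Angptl2 of follicular helper cells and the antigen-receptor response genes Nr4a1 and Nr4a2 were at least 2-fold lower. Foxp3, 7 of 46 ribosomal protein genes, a pair of inducible heat shock genes and the receptor gene Klrg1 were at least 2-fold higher. Among all genes tested, 6.03% were higher by the size rule defined below. With counts scaled by library totals, Foxp3 fell just under 2-fold and 1 of the 46 ribosomal protein genes passed. There was 1 library on each side, so the ratios have no replicate check and their intervals cover counting error only.

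Rapamycin binds the immunophilin encoded by Fkbp1a, and the pair blocks mTORC1, the kinase complex that couples nutrients and antigen signals to protein synthesis, glycolysis and growth. Metformin lowers mitochondrial ATP production and activates AMPK, a kinase that senses low energy and can itself restrain mTORC1. In T cells, mTORC1 activity is known to favour effector over regulatory and resting states, and messenger RNAs of ribosomal proteins carry a pyrimidine tract at their start through which mTORC1 controls their translation. The comparison sets a past course of direct mTOR inhibition against a past course of energy stress, with antigen on both sides.

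The cells carried the transgenic CBir1 receptor, which recognises a flagellin of gut bacteria. CD45.1 donor cells without CD44 went into CD45.2 C57BL/6 hosts on day 0, and the hosts were immunised on days 1 and 7 with 50 ug flagellin and 1 ug CT. On days 28 and 35 both groups were given 3 ug of the multi-epitope peptide MEP1 and then, for 5 days, metformin or rapamycin in the vehicle CMC. A challenge of 3 ug MEP1 followed on day 56, and spleen donor cells were collected by sorting on day 63, weeks after the last inhibitor course. The other libraries were vehicle with peptide (MEP1+CMC), both inhibitors with peptide (the combination), No treatment (immunised and challenged, with neither the earlier peptide nor an inhibitor) and a naive CD4 control of the same receptor. Inhibitor doses, the sex and age of the mice, and any pooling of mice are unknown from the sources used here. The header of the No treatment counts says that there was no challenge; the sample's label was followed.

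The metformin library held 44374250 counts and the rapamycin library 32321936, and the other 4 held from 26139000 to 60622310. Levels are counts scaled to a common library size (CPM) with TMM, the trimmed mean of M values. The transgenic segment Trbv13-1 took 98.8% of beta-chain variable counts with metformin (exact 95% binomial interval 98.8% to 98.9%) and 99.1% with rapamycin (99.1% to 99.2%). Of the 19 CD4 T-cell identity genes none passed the size rule defined below, and Cd3e was at 861 CPM with metformin and 816 CPM with rapamycin. Xist was at 0.218 and 0.532 CPM in these 2 libraries, 257 in MEP1+CMC and 23.0 in No treatment, and Y-linked Ddx3y at 95.9 and 67.9 against 0.301 and 34.2 CPM. In the naive control Xist was at 42.8 and Ddx3y at 0.374 CPM. Both libraries of the pair were thus low in Xist and high in Ddx3y, MEP1+CMC and the naive control had the opposite pattern, and No treatment had both transcripts. Differences of the pair from MEP1+CMC therefore cannot be told apart from a difference in the sex of the cells. Of 6 sex-linked genes 2 passed the rule as higher with rapamycin, Xist (1.28) and its antisense gene Tsix, both below 1 CPM in the pair. Summed CPM of 20 macrophage, monocyte and dendritic-cell markers was 614 with metformin and 616 with rapamycin, of 14 B-cell markers 316 and 387, of 8 neutrophil markers 0.516 and 7.83, and of 12 erythroid and platelet markers 59.4 and 106. By the size rule, 2 of 5 CD8 T-cell markers past the low-count filter were higher with rapamycin and 0 lower. Counts were 3 higher and 1 lower of 11 B-cell markers, and 2 and 1 of 7 plasma-cell markers. They were 3 and 1 of 8 erythroid and platelet, 3 and 0 of 3 neutrophil, and 1 and 0 of 18 macrophage, monocyte and dendritic-cell markers. Among all genes, 6.03% were higher and 2.93% lower. In bulk RNA, fewer cells of a type and less RNA per cell cannot be told apart.

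A gene passed the size rule when its ratio between the libraries was at least 2-fold and its 95% counting interval excluded no change. Of 12928 genes tested, 1159 passed (8.97%), of which 780 were higher with rapamycin (6.03%) and 379 lower (2.93%). Counts within the gene lists below are read against these shares. The surplus of higher genes depended on the scaling and on gene length. With library totals 560 were higher and 507 lower, with TMM factors computed before the low-count filter 545 and 521, and after taking out the length trend 460 and 457. Processed pseudogenes, 537 of the genes tested, made up 187 of the 780 higher genes and 2 of the 379 lower ones. Among 10960 protein-coding genes, 336 were higher and 318 lower, with a median log2 ratio of -0.02.

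**Figure D1:**
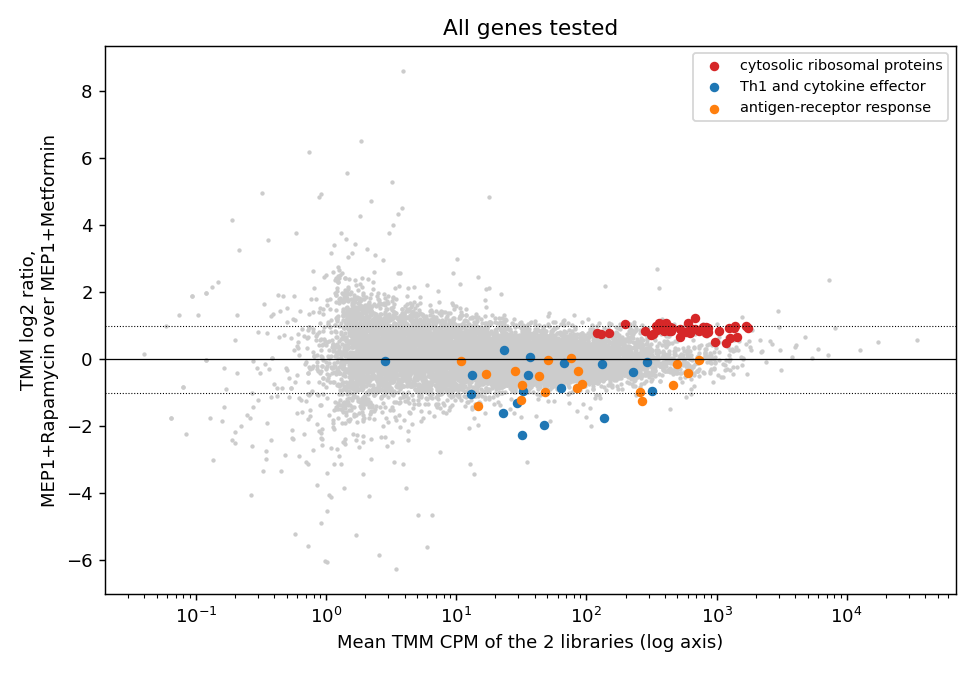
Each point is 1 of the genes tested, with its mean CPM in the 2 libraries on a log axis and the TMM log2 ratio of MEP1+Rapamycin over MEP1+Metformin on the vertical axis; dotted lines mark a 2-fold difference. The 46 ribosomal protein genes (red) lie between 0.49 and 1.21, 16 of the 18 Th1 and cytokine effector genes (blue) lie below 0, and so do 18 of the 19 antigen-receptor response genes (orange).

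Of 18 listed Th1 effector genes past the low-count filter (20 were listed), 6 passed the size rule as lower with rapamycin and none as higher, against 2.93% lower among all genes, and the list median was -0.66. Ifng, the signature cytokine of Th1 cells (chromosome 10, 118441047 to 118445892, GRCm38), was at 19.1 CPM with rapamycin and 74.5 CPM with metformin, on 648 and 3750 counts. It was at 195 CPM in MEP1+CMC, 60.7 in No treatment, 24.96 in the combination and 0.16 in the naive control. Rapamycin was the lowest of the 5 transferred libraries for Ifng, with a log2 ratio to metformin of -1.96 (interval -2.08 to -1.84).

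Tbx21, which encodes the Th1 factor T-bet, was at 11.2 CPM with rapamycin and 34.2 with metformin, with 17.8 in MEP1+CMC, 22.7 in No treatment and 16.9 in the combination. The metformin library was the highest of the 5 for Tbx21 and the rapamycin library the lowest (log2 ratio -1.61, interval -1.78 to -1.45). The same ends held for Cxcr3, a receptor that guides Th1 cells to inflamed tissue (chromosome X, 101731535 to 101734269), at 62.3 CPM with rapamycin, 122 in the combination, 147 in MEP1+CMC, 178 in No treatment and 209.5 with metformin. Its log2 ratio was -1.75 (-1.82 to -1.68). The effector factor gene Eomes had a log2 ratio of -1.32 and Il18rap, a subunit of the IL-18 receptor, -1.03. For Eomes the combination was near metformin, at 47.4 against 42.2 CPM.

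The sequence just before the Ifng start is shown because its output differed. In the 250 bases before the RefSeq start (chr10:118440796-118441045, GRCm38.p6, plus strand), capitals mark the NFAT core GGAAA, searched on both strands together with the AP-1 site TGANTCA and the T-box half-site AGGTGT.
Ifng: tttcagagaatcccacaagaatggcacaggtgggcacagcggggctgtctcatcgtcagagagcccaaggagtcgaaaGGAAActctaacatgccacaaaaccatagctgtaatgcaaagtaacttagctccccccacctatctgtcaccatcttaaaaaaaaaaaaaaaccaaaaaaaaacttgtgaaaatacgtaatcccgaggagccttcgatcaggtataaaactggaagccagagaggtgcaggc
The core was found in 1 place and the other motifs in none. The core occurs in 54.7% of 9141 promoters of the same length and in 12 of the 15 Th1 promoters with a RefSeq entry. It occurs in 52.7% of 264 promoters of genes lower with rapamycin. Counts were 6 of 13 for antigen-receptor response, 7 of 14 for coinhibitory and 6 of 12 for follicular promoters. The promoters of Cxcr3 and Angptl2 held none of these motifs. Of all promoters, TGANTCA occurs in 3.91% and AGGTGT in 9.64%. A match describes letters and not a bound site.

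Of 5 measured CC and XC chemokine genes, 2 were lower with rapamycin and none higher, against 2.93% lower among all genes. Ccl4, an inflammatory chemokine made by activated T cells, was at 46.1 CPM with rapamycin, 154 with metformin, 76.2 in the combination, 157 in No treatment and 697 in MEP1+CMC (log2 ratio -1.74, interval -1.82 to -1.66). Both inhibitor libraries were below MEP1+CMC; the rapamycin library was also below No treatment, while metformin was level with it. Ccl3 had a log2 ratio of -1.70. Ccl5 was at -0.81 and Xcl1 at 0.32, and neither passed.

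Cytotoxic and NK-receptor genes split, with 4 of 13 lower and 2 higher, against 2.93% and 6.03% of all genes. The granule protease gene Gzmk was at 42.9 CPM with rapamycin and 126 with metformin (log2 ratio -1.56), with 143 in the combination. Klrk1 (-1.60), Ctla2a (-1.30) and Ctla2b (-1.29) were lower as well; the last pair are near-identical genes between which reads may be split. Klrg1, an inhibitory receptor of late effector cells (chromosome 6, 122270596 to 122282882), went the other way, as did the granzyme gene Gzma (1.38). Klrg1 was at 24.99 CPM with rapamycin and 17.9 in the combination, against 4.61 with metformin, 11.2 in MEP1+CMC and 3.52 in No treatment. Both rapamycin-treated libraries were above the other 3 for Klrg1, with a log2 ratio of 2.44 (2.23 to 2.66) between the pair compared. Of the 3 NK-cell markers past the filter (6 were listed), 2 passed the size rule as lower, Klrb1c at 0.532 CPM with rapamycin and 7.66 with metformin (log2 ratio -3.85) and Klre1 at 0.354 and 1.15 CPM (-1.70). The third, Tyrobp, which myeloid cells also express, was at 39.6 and 20.0 CPM and made up most of the summed CPM of the 6 markers, 42.7 with rapamycin and 30.3 with metformin. Their part in these differences was not tested.

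Regulators of G-protein signalling held some of the largest differences. Rgs16, which dampens chemokine receptor signals (chromosome 1, 153740349 to 153745468), was at 7.33 CPM with rapamycin, 62.3 with metformin, 25.5 in the combination, 43.9 in No treatment and 194 in MEP1+CMC. Rgs1, another member, was at 229.7 CPM with rapamycin and 644 with metformin, and the combination, at 262, lay near rapamycin. The adhesion receptor gene Adgrg1 was at 2.30 against 24.98 CPM, and the combination, at 22.1, lay near metformin. Log2 ratios were -3.09, -1.49 and -3.44. These were the 3 of 14 members that passed, against 8.97% of all genes in either direction. Other genes among the 10 lowest ratios by the naming rule were Rasd2 (-4.65), Esm1 (-3.15), Ncald (-3.07), Slc43a1 (-2.77), Ankrd6 (-2.61) and Dapk2 (-2.47).

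**Figure D2:**
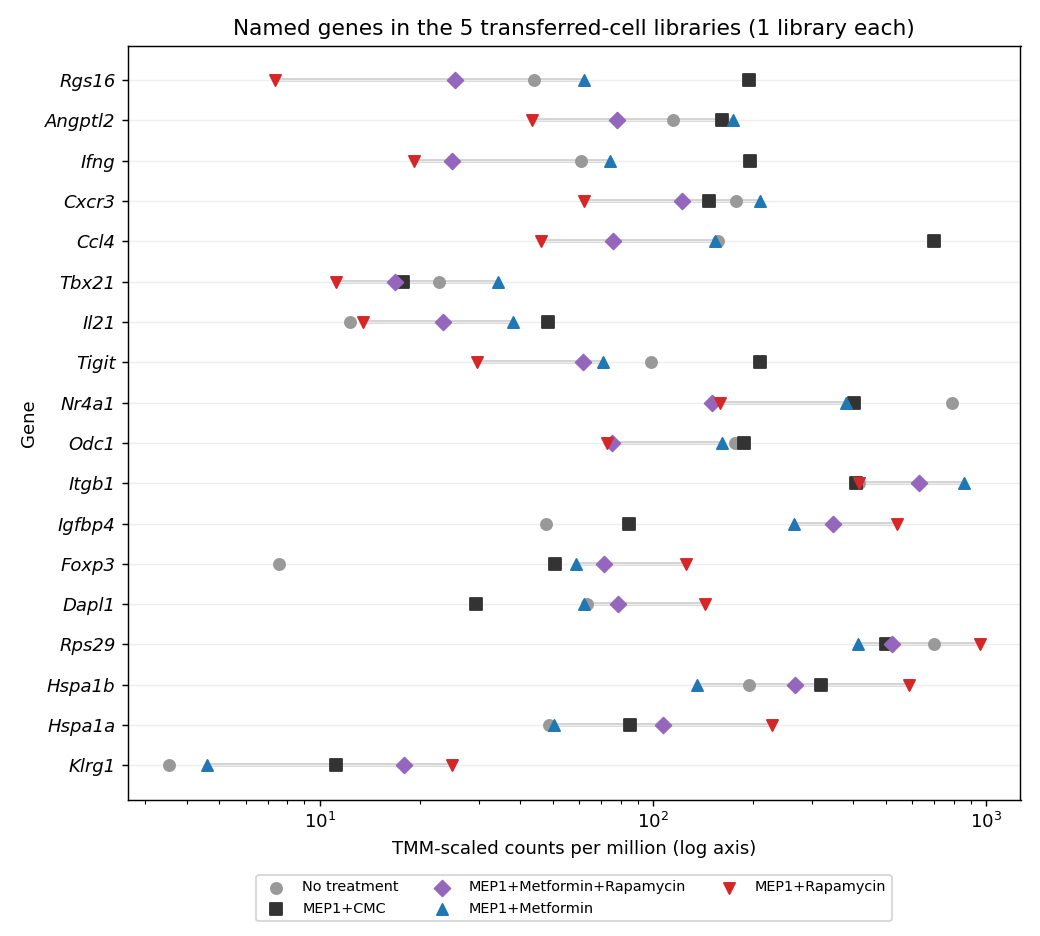
CPM (log axis) of 18 named genes in the 5 libraries of transferred cells, with 1 library per condition and a grey bar from MEP1+Metformin (blue) to MEP1+Rapamycin (red). For Nr4a1 and Odc1 the combination (purple) lies near the rapamycin value, and for Tigit it lies near the metformin value.

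Of 16 coinhibitory receptor and ectoenzyme genes, 3 were lower and none higher, against 2.93% lower among all genes. The list median was -0.49. Havcr2, which encodes the checkpoint receptor Tim-3, was at 0.797 CPM with rapamycin and 7.01 with metformin, against 14.6 in MEP1+CMC (log2 ratio -3.14, interval -3.76 to -2.57, on 27 and 353 counts). Tigit was at 29.6 against 70.9 CPM (-1.26), and Tox2, a factor of exhausted and follicular cells, had -1.197. Lag3 (-0.81), Entpd1 (-0.71) and Pdcd1 (-0.62) did not pass, and Ctla4 differed by -0.06 (-0.12 to 0.00).

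Follicular helper genes were lower for 4 of 17 members, against 2.93% of all genes, with none higher and a median of -0.42. Rgs16 is 1 of the 4. Angptl2, a secreted factor gene (chromosome 2, 33216069 to 33247717), was at 43.3 CPM with rapamycin, 77.9 in the combination, 115 in No treatment, 162 in MEP1+CMC and 175 with metformin. Its log2 ratio was -2.01 (-2.09 to -1.93), with the pair at the ends of the 5 libraries. Il21, the helper cytokine, was at 13.5 against 37.9 CPM (-1.49), and Cxcr5, the receptor for entry into follicles, at 46.9 against 97.5 CPM. Bcl6, the lineage factor gene, was at -0.68 and did not pass.

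Of 19 genes that mark recent antigen-receptor signalling, 3 passed the size rule as lower with rapamycin and none as higher, against 2.93% lower among all genes, and 18 had a ratio below 0, where 48.5% of all genes did; the median was -0.50. Nr4a1, an immediate early gene of the T-cell receptor (chromosome 15, 101266846 to 101274792), was at 159 CPM with rapamycin and 150.5 in the combination, against 379 with metformin, 401 in MEP1+CMC and 789 in No treatment. The rapamycin-treated libraries lay together below the other 3 transferred libraries, and the log2 ratio to metformin was -1.25 (-1.30 to -1.21). Nr4a2 was at 18.7 CPM with rapamycin, 20.2 in the combination, 43.6 with metformin and 69.0 in MEP1+CMC, and Ier3 had a log2 ratio of -1.41. Tnfaip3, the feedback inhibitor of NF-kB, was at 366 CPM with rapamycin and 335 in the combination against 802 with metformin and 1152 in MEP1+CMC (log2 ratio -1.13); with the length trend removed it no longer passed.

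The Nr4a1 promoter is shown since this gene was also called by the additive model described below. Capitals mark the CRE-like letters TGCGTCA, searched on both strands, in the 250 bases before the RefSeq start (chr15:101266596-101266845, GRCm38.p6, plus strand).
Nr4a1: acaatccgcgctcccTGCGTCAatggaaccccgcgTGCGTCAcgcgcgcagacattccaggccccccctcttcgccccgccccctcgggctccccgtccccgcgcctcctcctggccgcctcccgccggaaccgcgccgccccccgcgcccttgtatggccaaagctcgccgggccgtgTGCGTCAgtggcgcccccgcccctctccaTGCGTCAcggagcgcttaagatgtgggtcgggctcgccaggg
The letters occur 4 times here, and at least once in 3.30% of the 9141 promoters, in 1 of 13 antigen-receptor response promoters (that of Nr4a1) and in 2.65% of 264 promoters of genes lower with rapamycin.

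Regulatory T-cell genes were above 0 for 12 of 17 members (51.5% of all genes were), with a median of 0.49. Past the rule, 2 genes were higher and 1 lower, against 6.03% and 2.93% of all genes. Foxp3, which specifies regulatory T cells (chromosome X, 7579676 to 7595243), was at 126 CPM with rapamycin, 71.4 in the combination, 58.7 with metformin, 50.8 in MEP1+CMC, 13.8 in the naive control and 7.54 in No treatment. Rapamycin was the highest of the 6 libraries, with a log2 ratio to metformin of 1.10 (1.03 to 1.16). With library totals it was 0.98, and with TMM factors from before the filter 0.97, just under the 2-fold line in both. The actin-capping gene Capg was at 1.01 and under the line in 6 of 9 alternatives. Il2ra (0.61) and Tnfrsf18 (0.63) did not pass, and Ikzf2 was at -0.02. Il10, the anti-inflammatory cytokine, was lower, at 3.04 CPM with rapamycin, 2.37 in the combination, 7.17 with metformin and 42.4 in MEP1+CMC (log2 ratio -1.24).

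Among genes of naive and resting T cells, 2 of 20 were higher and none lower, against 6.03% and 2.93% of all genes. Igfbp4 was at 541 CPM with rapamycin, 348 in the combination, 266 with metformin, 84.6 in MEP1+CMC and 47.8 in No treatment, against 2255 in the naive control (log2 ratio 1.03, or 0.91 with library totals). Dapl1 was at 143 against 62.1 CPM (1.205, or 0.57 with the length trend removed). Lef1 was at 0.64, Ccr7 at 0.32, Il7r at 0.19 and Tcf7 at -0.43. The list median of 0.09 was -0.02 with library totals.

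In the memory and homing list, the integrin gene Itgb1 and the chemokine receptor gene Ccr2 were the 2 of 24 genes that passed, both lower. Among all genes 2.93% passed as lower. Itgb1 was at 856 CPM with metformin, 628 in the combination, 416 with rapamycin, 416 in No treatment and 408 in MEP1+CMC, so that metformin stood above the others. Ccr2 was at 17.6 CPM with rapamycin and 43.3 with metformin. In the Th2 list Il1rl1, the receptor for IL-33, was at 4.81 CPM with rapamycin and 4.38 in the combination, against 0.616 with metformin and 1.17 in MEP1+CMC (log2 ratio 2.97, on 163 and 31 counts). Ccr4 also passed (1.04), while the Th2 factor gene Gata3 was at 131 and 131 CPM.

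Of 46 listed cytosolic ribosomal protein genes, 7 passed the size rule as higher with rapamycin and none as lower, against 6.03% higher among all genes. Each of the 46 had a ratio above 0, from 0.49 (Rpl3) to 1.21 (Rps29), with a median of 0.88. The median CPM of the 46 genes was 721 with rapamycin, 400.4 with metformin, 445 in the combination, 432 in MEP1+CMC, 553 in No treatment and 1107 in the naive control. Rapamycin was the highest of the 5 transferred libraries by this median and metformin the lowest. Rps29 was at 959 against 413 CPM, Rps4x at 816 against 383 and Rpl5 at 556 against 261. The list median ran from 0.61 to 0.88 under the alternatives run, and 1 of the 46 passed with library totals or with TMM factors from before the filter. Ribosomal protein genes have many processed pseudogenes, and reads may be split between them.

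The start of these messenger RNAs is where the pyrimidine tract lies, so 20 bases are shown for the genes that passed and have a RefSeq start, and for Rps6, whose protein is a classical readout of mTORC1. Each runs from 5 bases before the annotated start to 15 bases from it (GRCm38.p6), and capitals mark a run of at least 5 C or T bases that opens with C within 3 bases of that start.
Rps4x: gcggagcaacccaggctcca
Rpl5: cttgcgtgctggtggtgcta
Rps28: gcggtctcgcgagagcgaaa
Rpl38: tcgttCTTTCCCCgttctct
Rps24: ggtcCTTCCTTgcgcgttga
Rps6: cgggcCTCTTTTTCgtgacg
Such a run was found in 14 of the 34 listed ribosomal protein genes with a RefSeq start, against 12.4% of the 9107 other genes. Among the 34, the median log2 ratio was 0.90 with the run and 0.84 without it. Annotated starts can be off by some bases, which moves this count.

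Shorter genes had higher median ratios of rapamycin to metformin. Outside the ribosomal list, the median log2 ratio was 0.79 for 580 genes of up to 500 bases, 0.62 for 672 genes above that and up to 1000, 0.30 for 1692 genes up to 2000, 0.01 for 4002 genes up to 4000 and -0.12 for 5911 longer ones, by the deposited gene length. Processed pseudogenes had a median of 0.82, and loci resembling ribosomal RNA took 3.13% of counts with rapamycin and 1.2003% with metformin. These loci took 1.28% in the combination, 1.11% in MEP1+CMC, 1.00% in No treatment and 15.4% in the naive control. By this length, the 16 ribosomal protein genes between 2000 and 4000 bases had a median of 0.83. The 5 longer ones had 0.94. The deposited length spans all annotated exons of a gene, 4080 bases for Rps20 and 3920 for Rpl5, and can exceed the messenger RNA. These classes therefore cannot show whether the ribosomal ratios depend on transcript length. The part of transcript length or RNA quality in these ratios was not tested.

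**Figure D3:**
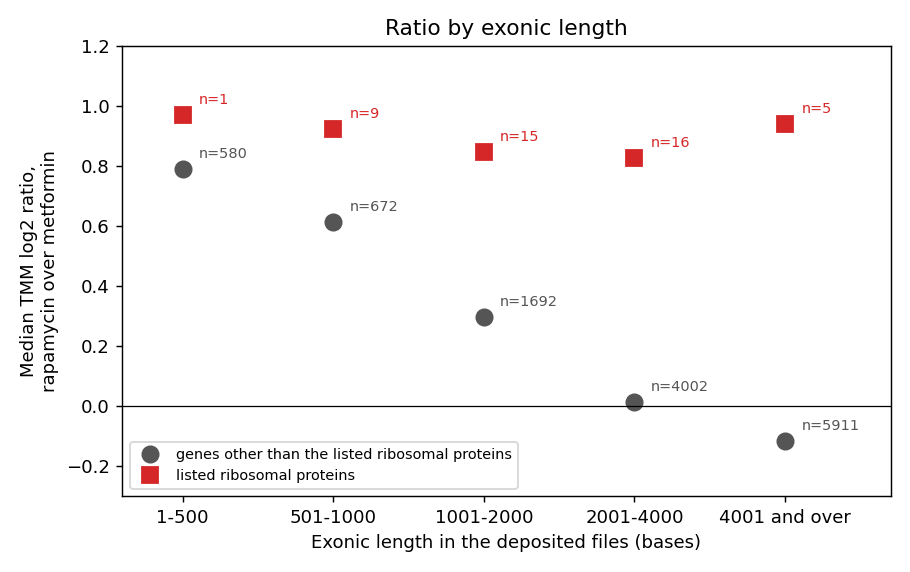
Median TMM log2 ratio of MEP1+Rapamycin over MEP1+Metformin by gene length in the deposited files, for the listed ribosomal protein genes (red) and other genes (grey), with the number of genes beside each point. Other genes step down from 0.79 to -0.12 across these classes, and the ribosomal protein genes stay between 0.83 and 0.97. The shortest class holds 1 ribosomal gene. This length covers all annotated exons and can exceed that of the messenger RNA.

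Genes of the respiratory chain were mostly above 0 without reaching the 2-fold line. Of 36 nuclear subunit genes, 32 had a ratio above 0 (median 0.47), as had each of the 13 mitochondrially encoded genes (median 0.54), and none passed in either direction. The median CPM of the nuclear genes was 143 with rapamycin, 117 in the combination, 109 with metformin, 136 in MEP1+CMC and 160.4 in No treatment. Metformin was the lowest of the 5 libraries by this median. For the mitochondrially encoded genes the combination was the lowest, at a median of 127 CPM against 153 with metformin. The subunit genes mt-Nd6 and mt-Nd3 of the first complex were at 258 against 153 CPM (0.75) and 20.1 against 13.3 CPM (0.59). In the combination these 2 genes were at 127 and 11.8 CPM. Whether an inhibitor caused these differences was not tested. With the length trend removed, the nuclear median was 0.23 and the mitochondrial median 0.02.

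Of 30 genes of the mTOR and AMPK machinery none passed, and the list median was 0.04, or -0.07 with library totals. Mtor was at 26.02 CPM with rapamycin and 27.3 with metformin, Rptor, its mTORC1 partner, at 43.6 and 42.3, Fkbp1a at 333 and 308, and the AMPK subunit gene Prkaa1 at 31.4 and 40.6. The targets of the drugs thus differed by less than 2-fold in transcript level. Among members with larger ratios were Eif4ebp1, a translation repressor phosphorylated by mTORC1 (0.64), and Rps6 (0.66). Ddit4, an mTORC1 inhibitor induced by energy stress, was at 14.9 CPM with rapamycin, 14.9 in the combination, 9.29 with metformin and 4.54 in MEP1+CMC (0.68, interval 0.49 to 0.86).

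Metabolic lists are read against the all-gene shares of 2.93% lower and 6.03% higher. In glycolysis and HIF1, 2 of 26 were lower, the HIF target Egln3 (6.47 CPM with rapamycin, 7.64 in the combination and 17.0 with metformin, log2 ratio -1.39) and Aldoc (-1.26), while Hif1a was at -0.89 and Ldha at 0.21. In sterol and fatty acid synthesis, 1 of 29 genes was lower and 1 higher, the latter being the desaturase gene Scd1 (1.68 against 0.735 CPM). Odc1, the rate-limiting enzyme of polyamine synthesis, was at 72.6 CPM with rapamycin and 75.4 in the combination, against 161 with metformin, 187 in MEP1+CMC and 176 in No treatment. Its log2 ratio was -1.15 (-1.22 to -1.09), and it was 1 of 13 polyamine genes to pass. No gene passed in fatty acid oxidation (20 genes), the ATF4 and amino acid list (23), ribosome biogenesis (26) or autophagy and lysosome (29). In the last, 23 of 29 were below 0, with a median of -0.20, and Tfeb, a master factor gene of lysosomes, was at -0.45.

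**Figure D4:**
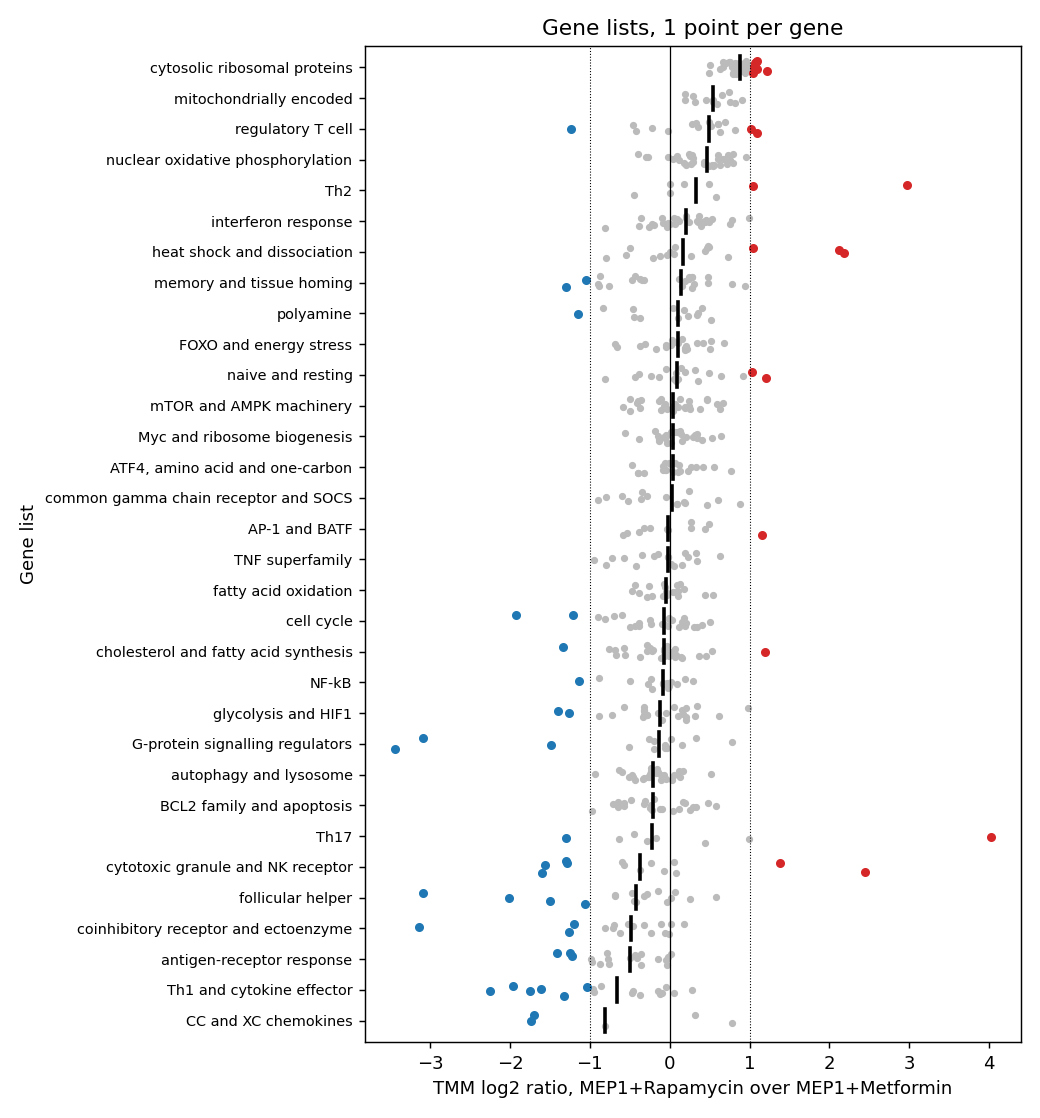
Log2 ratio of MEP1+Rapamycin over MEP1+Metformin for each gene of 32 lists, 1 point per gene, ordered by list median (black bar). Red and blue points passed the size rule as higher and lower with rapamycin, grey points did not; the medians run from -0.81 (chemokines, 5 genes) to 0.88 (ribosomal proteins), and several near 0 change sign with the scaling.

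Inducible heat shock genes stood apart from other chaperones. Hspa1a (chromosome 17, 34969190 to 34972156) was at 228 CPM with rapamycin, 107 in the combination, 85.5 in MEP1+CMC, 50.4 with metformin and 48.9 in No treatment, a log2 ratio of 2.18 (2.12 to 2.25). Its neighbour Hspa1b was at 587 CPM with rapamycin, 319 in MEP1+CMC, 266 in the combination, 195 in No treatment and 135 with metformin (2.12). Rapamycin was the highest of the 6 libraries for both. Hspe1 also passed (1.04), so 3 of 18 genes were higher and none lower, against 6.03% higher among all genes. Hsp90aa1 (0.45), Hspa8 (0.26) and Hspd1 (-0.21) did not pass. Hspa1a and Hspa1b encode nearly the same stress-inducible Hsp70, so the split of reads between them is uncertain. Such genes can also be induced while cells are prepared, and Fosb, an early gene that can be too, was higher (1.15) whereas Junb was at -0.32. The part of handling was not tested.

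Their promoters are shown because both genes moved together. In the 250 bases before each RefSeq start (chr17:34972157-34972406 and chr17:34959239-34959488, GRCm38.p6, both minus strand), capitals mark the heat shock element GAANNTTC, which reads alike on both strands.
Hspa1a: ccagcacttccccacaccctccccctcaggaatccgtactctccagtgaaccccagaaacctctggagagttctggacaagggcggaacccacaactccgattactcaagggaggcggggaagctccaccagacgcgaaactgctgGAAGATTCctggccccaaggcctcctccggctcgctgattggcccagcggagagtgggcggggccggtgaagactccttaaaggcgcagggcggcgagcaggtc
Hspa1b: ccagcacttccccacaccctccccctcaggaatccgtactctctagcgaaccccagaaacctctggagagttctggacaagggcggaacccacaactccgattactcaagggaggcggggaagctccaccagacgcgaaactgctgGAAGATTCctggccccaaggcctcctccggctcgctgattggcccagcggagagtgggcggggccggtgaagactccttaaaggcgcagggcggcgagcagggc
The promoters were identical at 247 of 250 bases, with 1 element each. The element occurs in 5.10% of the 9141 promoters and in 4 of 14 promoters of the heat shock list.

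The other libraries were set beside the pair as a description. For each of the 1159 genes past the rule, each other library was placed nearer to rapamycin or nearer to metformin on the log scale. The combination was nearer to rapamycin for 161 of the 780 higher genes (20.6%) and 104 of the 379 lower genes (27.4%). MEP1+CMC was nearer to rapamycin for 155 (19.9%) and 92 (24.3%), and No treatment for 292 (37.4%) and 141 (37.2%). The naive control was nearer to rapamycin for 406 of the higher genes (52.1%) and 303 of the lower genes (79.9%). The genes were chosen by the ratio of the pair and the rapamycin library is the shallower one. The part of counting noise in these shares was not tested, so they do not show which library of the pair changed. A stricter filter asked for at least 10 CPM on average. With it, MEP1+CMC was nearer to rapamycin for 13.3% of all genes that passed and the combination for 17.6%. No treatment was nearer to rapamycin for 49.4% of all and for 68.8% of the higher genes, and the naive control for 82.8% of all.

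**Figure D5:**
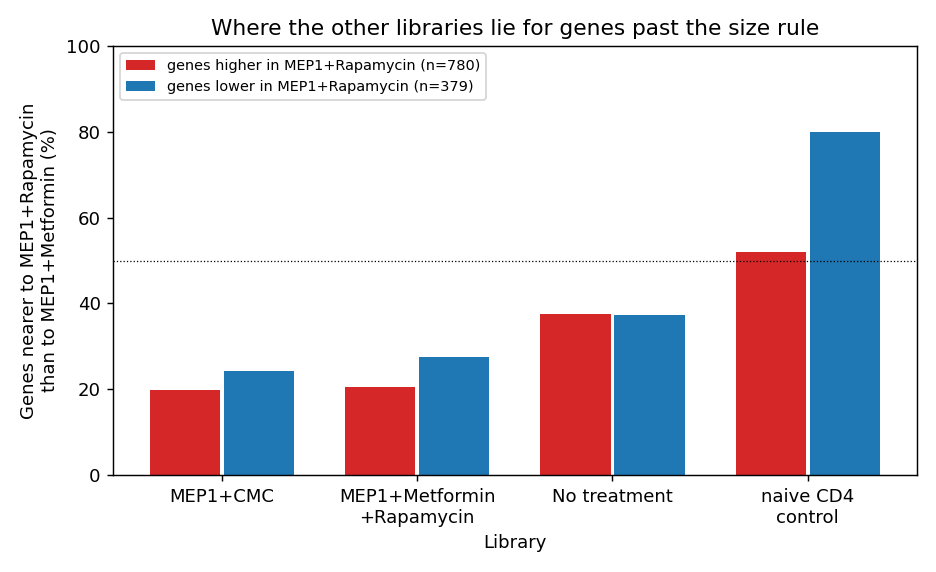
Percentage of the genes past the size rule for which a library is nearer to MEP1+Rapamycin than to MEP1+Metformin on the log2 CPM scale, for genes higher (red, 780) and lower (blue, 379) with rapamycin; the dotted line marks equal shares. MEP1+CMC and the combination lie from 19.9% to 27.4%, and the naive control reaches 79.9% for the lower genes.

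A model of the 4 peptide-treated libraries gives the one estimate of spread that the design allows. It had additive terms for metformin and rapamycin. The rapamycin term minus the metformin term was tested against how far the libraries departed from additivity (edgeR quasi-likelihood, Benjamini-Hochberg adjustment). That departure gives each gene 1 residual degree of freedom. The spread of each gene was moderated with that of other genes, at a median of 12.6 prior degrees of freedom. For most genes, the SE and p-value thus rest largely on spread shared across genes. MEP1+CMC, which differs from the other 3 in Xist and Ddx3y, enters that spread. The model called 21 of 12928 genes (0.162%), of which 12 were higher (0.0928%) and 9 lower (0.0696%) with rapamycin. Each of the 21 also passed the size rule. In this balanced design the contrast largely reduces to the ratio of the same 2 libraries, so that overlap is not independent support. Immunoglobulin variable segments made up 4 of them (Igkv1-110, Igkv12-41, Igkv5-39 and Ighv1-69), named here after their values were seen. Without the share of such segments among all genes tested, this count cannot be read as a surplus. B-cell and plasma-cell markers are given above, and the part of such cells in these calls was not tested. With library totals the model called 11 of 12928 genes. Without a low-count filter edgeR called 0 of 37333, with 1635 at an unadjusted p under 0.05. The DESeq2 Wald test called 140 of the 2652 genes to which it gave an adjusted p.

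Of the T-cell genes, Cxcr3 was lower by the edgeR model (log2 difference -1.74, SE 0.24, adjusted p = 0.011), as were Angptl2 (-1.998, SE 0.28, adjusted p = 0.028) and Nr4a1 (-1.25, SE 0.22, adjusted p = 0.046). Klrb1c, Slc43a1, Krt15 and the integrin gene Itga7 were lower too, with adjusted p from 0.038 to 0.046. Hspa1a (2.18, SE 0.21, adjusted p = 0.0006), Hspa1b (2.12, SE 0.23, adjusted p = 0.0015) and Klrg1 (2.37, SE 0.39, adjusted p = 0.031) were higher. So were Otx1, the NADPH oxidase gene Cybb, Krt14, Fcgbp and Clca3a2, with adjusted p from 0.016 to 0.047. Tbx21 (adjusted p = 0.052) and Odc1 (adjusted p = 0.069) missed the threshold. Ifng (adjusted p = 0.7), Ccl4 (adjusted p = 0.87), Rgs16 (adjusted p = 0.82), Foxp3 (adjusted p = 0.33) and Rps29 (adjusted p = 0.11) did not pass it either. For Ifng and Ccl4, the log2 ratio of rapamycin to MEP1+CMC was -3.35 and -3.92, and that of the combination to metformin was -1.58 and -1.01; this departure from additivity enters their error.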

How the data were processed

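RNA of sorted CBir1 transgenic CD4 T cells was sequenced from ultra-low-input libraries, 1 per condition. The deposited values are raw read counts per gene, without normalization. The submitters' processing notes name Trimmomatic 0.36, STAR 2.5.2b, featureCounts of Subread 1.5.2 and GRCm38. Strand setting, annotation release and handling of multi-mapping reads are unknown from these sources, so overlapping, antisense and near-identical genes are uncertain. Of 49315 gene identifiers, 48970 matched a symbol; promoter and start sequences are from RefSeq (GRCm38.p6), with 9141 of the tested genes matched.

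Genes were kept with at least 2 CPM and 10 counts in at least 1 of 6 libraries (12928 genes). TMM factors were then computed over the kept genes in edgeR 4.0.16 under R 4.3.3, giving 1.13 for MEP1+Metformin and 1.05 for MEP1+Rapamycin. Ratios have exact 95% Clopper-Pearson intervals (scipy 1.17.1), with a floor of 3 counts per library in place of 0; without molecular identifiers, reads are not independent molecules. No p-value is given for the pair alone. The additive model used edgeR's quasi-likelihood test; its p-values rest on the spread between these libraries alone. In data simulated for that contrast on 12928 genes, 62.5% of 200 genes set to differ by 4-fold were recovered and 0 of 200 set to differ by 2-fold. The simulated effects were exactly additive, all genes had the same dispersion (0.061), and the changed genes were drawn from better-counted ones. Real genes such as Ifng and Ccl4 departed from additivity, so these rates need not hold for the libraries.

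The 42 gene lists (763 genes, 700 past the filter) were written from general knowledge. Named genes were those of a fixed list, up to 4 members per list and direction with the largest ratios past the size rule, the 10 highest and 10 lowest ratios with at least 10 counts in both libraries and 5 CPM in the higher one, and the 10 model calls with the smallest p in each direction, leaving out antigen-receptor segments, sex-linked, rRNA-like and predicted genes. Other list members are named where a list is described, and some genes that the rule names are not reported here. The comparison, the lists and the tests were chosen with earlier results of these data known, and the sequence motifs, length classes and gene types after values were seen. Alternatives were other scalings and filters, removal of the length trend, removal of receptor segments and rRNA-like loci, the legacy quasi-likelihood fit and DESeq2 1.42.0.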

Additional observations from a re-analysis of the deposited data

How the results depend on the processing

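With 1 library per condition, leaving out a library leaves nothing to compare, and in the additive model no residual degree of freedom. No paired analysis was possible because each condition has a single library. Without a filter 6243 genes passed the size rule (4947 higher, 1296 lower), and with the stricter filter 233 (141 higher, 92 lower); with the length trend removed 460 were higher. The median ratio of all genes shifted by -0.12 with library totals, by -0.13 with TMM factors from before the filter (added after seeing the data) and by 0.14 without a filter. The additive model called 11 genes with library totals (6 higher, 5 lower), 5 with the stricter filter (4 and 1), 0 of 37333 without a filter (0 and 0 by edgeR, with 1635 genes at an unadjusted p under 0.05) and 140 of 2652 by the DESeq2 Wald test (112 and 28), of which 5 were among the 21; the cause was not tested. With the stricter filter, the percentage nearer to rapamycin was 7.61% for MEP1+CMC (lower genes), 68.8% and 19.6% for No treatment (higher and lower genes) and 83.0% for the naive control (higher genes), which was 43.8% with library totals.

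List medians that changed sign are given here to 3 digits. With library totals and with TMM factors from before the filter, these were naive and resting (-0.0247 and -0.0381), common gamma chain (-0.0910 and -0.104), mTOR and AMPK machinery (-0.0718 and -0.0852), FOXO and energy stress (-0.0175 and -0.0309), ATF4 and amino acid (-0.0761 and -0.0895), polyamine (-0.0129 and -0.0263), Myc and ribosome biogenesis (-0.0747 and -0.0881) and sex-linked (-0.0889 and -0.102). With the stricter filter these were AP-1 and BATF (0.271), Th17 (0.139), common gamma chain (-0.0442), mTOR and AMPK machinery (-0.0310), sex-linked (-0.0749), CD8 markers (-0.0867), NK markers (0.989) and macrophage markers (-0.198). With the length trend removed these were memory and homing (-0.246), common gamma chain (-0.0868), sterol and fatty acid synthesis (0.0339) and macrophage markers (-0.0579). Without a filter NK markers were at 0.577, and with the filter on the pair alone the sex-linked list was at -0.287. Medians of the Th1, chemokine, coinhibitory, antigen-receptor, follicular, regulatory, respiratory and ribosomal lists kept their sign under the 9 alternatives run.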

Other observations

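Genes better known from epithelium differed between the libraries at low levels. The keratin gene Krt14 was at 17.9 CPM with rapamycin, 10.4 in MEP1+CMC and 28.9 in the naive control, against 2.26 with metformin, 2.07 in the combination and 0.761 in No treatment. Fcgbp, a mucus protein gene, had the same 3 libraries high, at 6.79, 3.20 and 7.00 CPM against 0.338, 0.141 and 0.149. Krt15 was highest with metformin (20.2 CPM) and in the combination (18.5), against 4.87 with rapamycin. Which cells carried these transcripts was not tested.

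Ltb4r1, the leukotriene B4 receptor gene, was at 6.11 CPM with rapamycin, 2.12 in No treatment, 1.57 in the combination, 0.636 in MEP1+CMC and 0.377 with metformin (log2 ratio 4.02). The neutrophil marker S100a8 was at 3.49 CPM with rapamycin and 3.41 in the combination, against 0.179 with metformin, and the part of such cells was not tested. Of 32 interferon response genes 21 had a ratio above 0, with a median of 0.20, and none passed the size rule. Of 27 cell cycle genes, Aurkb (-1.92, on 16 counts with rapamycin and 90 with metformin) and Ccnb1 (-1.21) passed as lower, where 2.93% of all genes did. The list median was -0.07, 10 of the 27 were above 0, and the proliferation marker Mki67 was at 0.18. With the stricter filter, 0 of 16 cell cycle genes passed in either direction.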
